A study of Rattus norvegicus with 10 samples.

Results

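Plasminogen activators, matrix metalloproteinases and their inhibitors were followed in cultured rat microglia with and without interferon gamma (IFN-gamma). The genes were Plau, Plat, Plaur, Serpine2, Mmp2, Mmp9, Timp1, Timp2 and Timp3. All probe sets whose only gene symbol in the platform annotation was one of these 9 names were taken. This gave 11 of the 8740 probe sets tested, for 9 of the 4736 genes measured. Within these genes no probe set was chosen by its values, but the genes themselves were proposed with earlier results of these data known. Mmp2 and Timp1 had 2 probe sets each and the other 7 genes had 1. The 2 Timp1 probe sets were designed on the same sequence entry, so they share a target.

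The cells were microglia grown from neonatal rat brain in medium with 15% fetal calf serum and plated on day 15 at 100000 cells per dish. The 5 control cultures (numbered 1, 2, 3, 5 and 6) received fresh medium alone. The 3 IFN-gamma cultures received fresh medium with 100 U/ml IFN-gamma for 16 hours, and culture 1 of them was run on 3 technical arrays (1a, 1b and 1c), which were averaged, so that n = 5 and n = 3. These are unsorted primary cultures, and in such bulk RNA fewer cells of a type and less RNA per cell cannot be told apart. Levels are log2(signal + 16) after quantile normalisation, on which a signal of 0 is 4, so changes of dim probe sets are understated. Of 17 listed microglia and macrophage markers 13 were measured, and the 2 with the highest control levels, Lyz2 and Ctss, stood at 10.82 ± 0.303 and 10.52 ± 0.156 in the controls (SD, n = 5). Others of the list were dim there, with Csf1r at 4.73, Itgam at 4.98, Cd74 at 4.51 and Cx3cr1 at 5.19. Of the 13, 3 had a mean control signal under 16.

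Plasmin is made from plasminogen by urokinase (Plau) or by tissue plasminogen activator (Plat). Urokinase acts at the cell surface on its receptor (Plaur), and protease nexin 1 (Serpine2) is a serpin that inhibits both activators. Plasmin degrades matrix and can activate metalloproteinases such as the gelatinases Mmp2 and Mmp9, which the tissue inhibitors of metalloproteinases (TIMPs) block. Timp2 also takes part in the activation of pro-Mmp2 at the cell surface, and microglia use these enzymes in migration and matrix remodelling.

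Plau and Timp2, a protease and an inhibitor, fell with IFN-gamma, and the other 9 probe sets did not pass the test. The sequences before the transcription starts of these 2 genes are shown because they are the members called after quantile normalisation. Both calls were lost with no scaling and with array medians subtracted, as given below. They are 250 bases long, from RefSeq (build GRCr8), 5′ to 3′ on the strand of the gene, and end at the base before the annotated start. Capitals mark each match to the GC box GGGCGG on either strand. Plau lies on the minus strand at chr15:3511988-3512237 and Timp2 on the minus strand at chr10:104089215-104089464.
Plau: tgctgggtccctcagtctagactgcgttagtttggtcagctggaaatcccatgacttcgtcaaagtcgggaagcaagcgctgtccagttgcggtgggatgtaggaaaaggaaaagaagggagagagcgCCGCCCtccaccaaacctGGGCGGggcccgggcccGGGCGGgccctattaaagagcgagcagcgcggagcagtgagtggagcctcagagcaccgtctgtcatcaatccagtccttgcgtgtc
Timp2: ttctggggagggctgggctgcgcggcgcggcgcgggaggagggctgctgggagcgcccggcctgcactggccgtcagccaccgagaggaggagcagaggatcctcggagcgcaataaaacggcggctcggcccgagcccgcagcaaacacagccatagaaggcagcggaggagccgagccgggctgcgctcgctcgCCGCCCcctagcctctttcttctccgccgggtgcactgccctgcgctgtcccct

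The window before Plau held 3 GC boxes and that before Timp2 held 1. A window was matched for 6 of the 9 genes (Plau, Plaur, Serpine2, Timp1, Timp2 and Timp3), and a GC box was found in 5 of them, against 30.5% of 33469 RefSeq windows of the same length. Serpine2 had 6 matches, some of which overlap, Timp3 had 3 and Timp1 had 1, while Plaur had none. The 5 windows with a GC box ran from 60% G and C before Plau to 76.8% before Serpine2, against a median of 51.2% over all windows. The gamma-activated site TTCNNNGAA, searched on both strands and present in 7.7% of all windows, had no match in the 6, which says only that these letters are not in these windows. The AP-1 motif TGANTCA, present in 6.3%, matched once, before Plaur. A match is a description of the letters and not a binding site.

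Over the whole array 133 of 8740 probe sets (1.52%) passed at an adjusted p under 0.05, of which 52 (0.595%) were lower and 81 (0.927%) higher. Among the 11 members 4 had an unadjusted p under 0.05 by limma, against 916 of all 8740 probe sets. After adjustment 2 members were called lower and 0 higher. The same 2 members, and no other, had all 3 IFN-gamma cultures below all 5 controls, a separation seen below in 3.39% and above in 4.29% of all probe sets. The median log2 fold change of the 11 was -0.32, against -0.02 over all probe sets, and 9 of the 11 had a negative value, against 52.6% of all probe sets. With no scaling 7 of the 11 were negative. The genes were proposed with earlier results of these data known, so these counts describe them and do not show that the group stands apart.

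**Figure D1:**
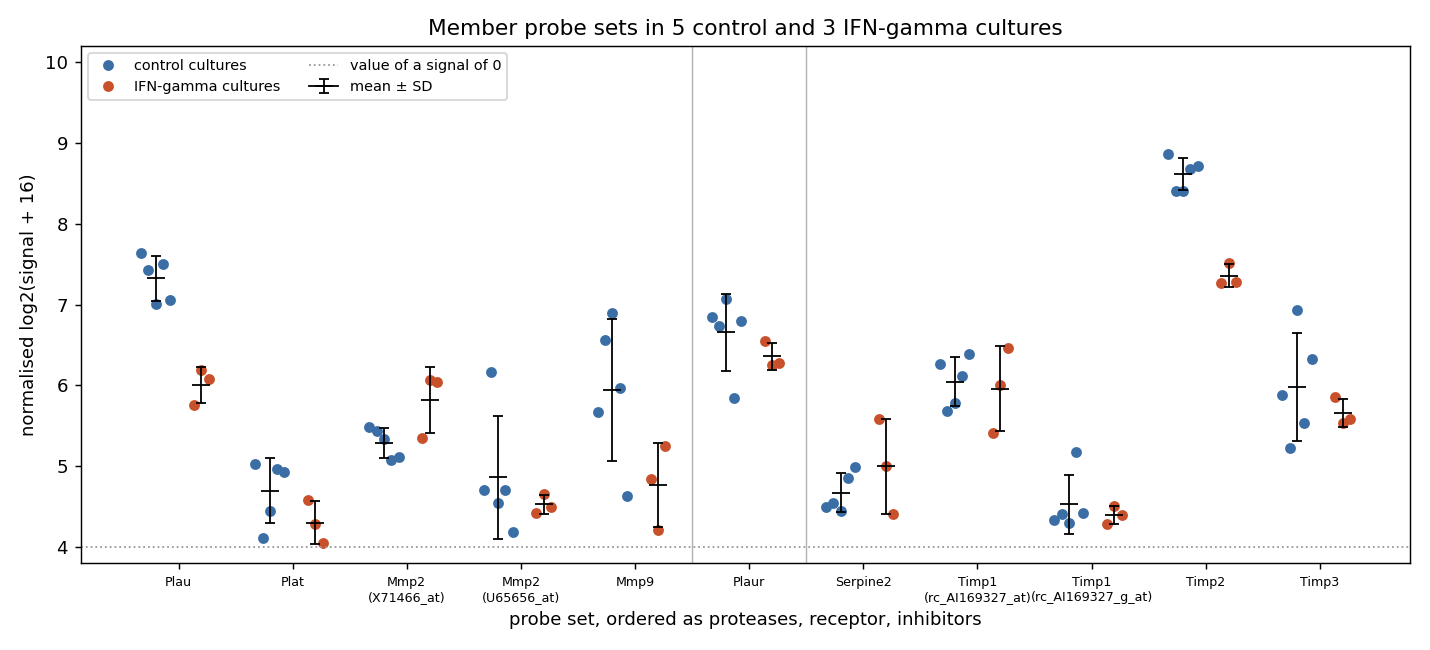
Normalised log2(signal + 16) of each member probe set (x axis) in the 5 control cultures (blue) and the 3 IFN-gamma cultures (orange), with the mean and SD in black; the dotted line is the value of a signal of 0. Plau and Timp2 show groups that do not overlap, while Plat, Serpine2 and one probe set each of Mmp2 and Timp1 lie near the dotted line.

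Among the proteases, Plau had normalised levels of 7.64, 7.43, 7.01, 7.50 and 7.06 in control cultures 1, 2, 3, 5 and 6. In IFN-gamma cultures 1, 2 and 3 it had 5.76, 6.19 and 6.08. The highest treated culture thus lay below the lowest control. The mean fell 2.49-fold, from 7.33 ± 0.28 (SD, n = 5) to 6.01 ± 0.224 (SD, n = 3), a log2 fold change of -1.31 with a 95% interval from -1.78 to -0.85 (limma, adjusted p = 0.0126). The deposited signals were 311.7, 96.4, 41.5, 167.4 and 144.4 in the controls and 33.4, 60.9 and 24.2 on arrays 1a, 1b and 1c and 64.4 and 75.5 in cultures 2 and 3. As deposited the groups overlap, because control culture 3, the array with the lowest median signal, has 41.5.

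The call for Plau depended on how the arrays were put on a common scale. It was lost with array medians subtracted (log2 fold change -1.10, adjusted p = 0.196) and with no scaling (-0.98, adjusted p = 0.767), and with a pseudocount of 1 (-1.56, adjusted p = 0.124), and kept with a trimmed mean (-1.35, adjusted p = 0.0226). It was also lost without IFN-gamma culture 1 (adjusted p = 0.0795) or 3 (adjusted p = 0.0674).

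Tissue plasminogen activator, Plat, was dim. Its normalised levels were 5.03, 4.11, 4.45, 4.96 and 4.93 in the controls and 4.58, 4.28 and 4.05 with IFN-gamma, and its deposited signal was under 16 on 6 of 10 arrays. The groups overlapped, with control culture 2 lower than IFN-gamma cultures 1 and 2. Its log2 fold change was -0.40, with an interval from -0.96 to 0.17 (adjusted p = 0.694). Array 1c of IFN-gamma culture 1 gave 5.50 while arrays 1a and 1b gave 4.12, a technical range of 1.39 that is wider than the range of 0.92 over the 5 controls.

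The gelatinase gene Mmp9 varied more between control cultures than any other member, at 5.67, 6.56, 6.89, 5.97 and 4.63. With IFN-gamma it had 4.84, 4.21 and 5.25. Control culture 6 lay among the treated cultures and the other 4 controls lay above all of them. The log2 fold change was -1.18 ± 0.475 (SE), close in size to that of Plau, with a wide interval from -2.25 to -0.11 (adjusted p = 0.404), so Mmp9 did not pass over the array. The value was negative in all 19 other settings, from -2.15 to -0.59. Without control culture 6 the groups did not overlap, and no setting made a call.

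The other gelatinase gene, Mmp2, gave opposite signs by its 2 probe sets. The brighter one (X71466_at) had 5.49, 5.43, 5.34, 5.08 and 5.11 in the controls and 5.35, 6.07 and 6.04 with IFN-gamma. IFN-gamma cultures 2 and 3 lay above every control and culture 1 lay within their range. By this probe set the log2 fold change was 0.53, with an interval from 0.05 to 1.01 (adjusted p = 0.401). The other probe set (U65656_at) ran from 4.19 to 6.17 in the controls and from 4.42 to 4.66 with IFN-gamma, with a deposited signal under 16 on 9 of 10 arrays (log2 fold change -0.34, adjusted p = 0.879). Neither probe set passed in any setting.

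The receptor gene Plaur, which holds urokinase at the cell surface, had 6.84, 6.74, 7.07, 5.84 and 6.80 in the controls. With IFN-gamma it had 6.55, 6.25 and 6.28. Control culture 5 was the lowest of the 8 cultures and the other 4 controls lay above all treated cultures. The log2 fold change was -0.30, with an interval from -0.91 to 0.31 (adjusted p = 0.827), and with no scaling it was 0.06.

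Among the inhibitors, Timp2 had normalised levels of 8.86, 8.41, 8.41, 8.68 and 8.72 in the controls. With IFN-gamma it had 7.27, 7.52 and 7.28. The treated cultures lay close together and all below the controls. The mean fell 2.39-fold, from 8.62 ± 0.2 (SD, n = 5) to 7.36 ± 0.139 (SD, n = 3), a log2 fold change of -1.26 with an interval from -1.65 to -0.87 (limma, adjusted p = 0.00556). Arrays 1a, 1b and 1c agreed within 0.23. The deposited signals were 849.1, 188.6, 89.7, 356.2 and 503.9 in the controls and 92.8, 286.1 and 98.5 on arrays 1a, 1b and 1c and 216.4 and 227.3 in cultures 2 and 3, and overlap before scaling.

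The call for Timp2 was made without each culture in turn (adjusted p from 0.00645 to 0.0479) and depended on the scaling and the pseudocount. With array medians subtracted the log2 fold change was -0.78 (adjusted p = 0.606), with a trimmed mean -1.07 (adjusted p = 0.146), with no scaling -0.65 (adjusted p = 0.922) and with a pseudocount of 1 -1.35 (adjusted p = 0.171), and none of these passed. The falls of Plau and Timp2 kept their sign in all 19 other settings.

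**Figure D2:**
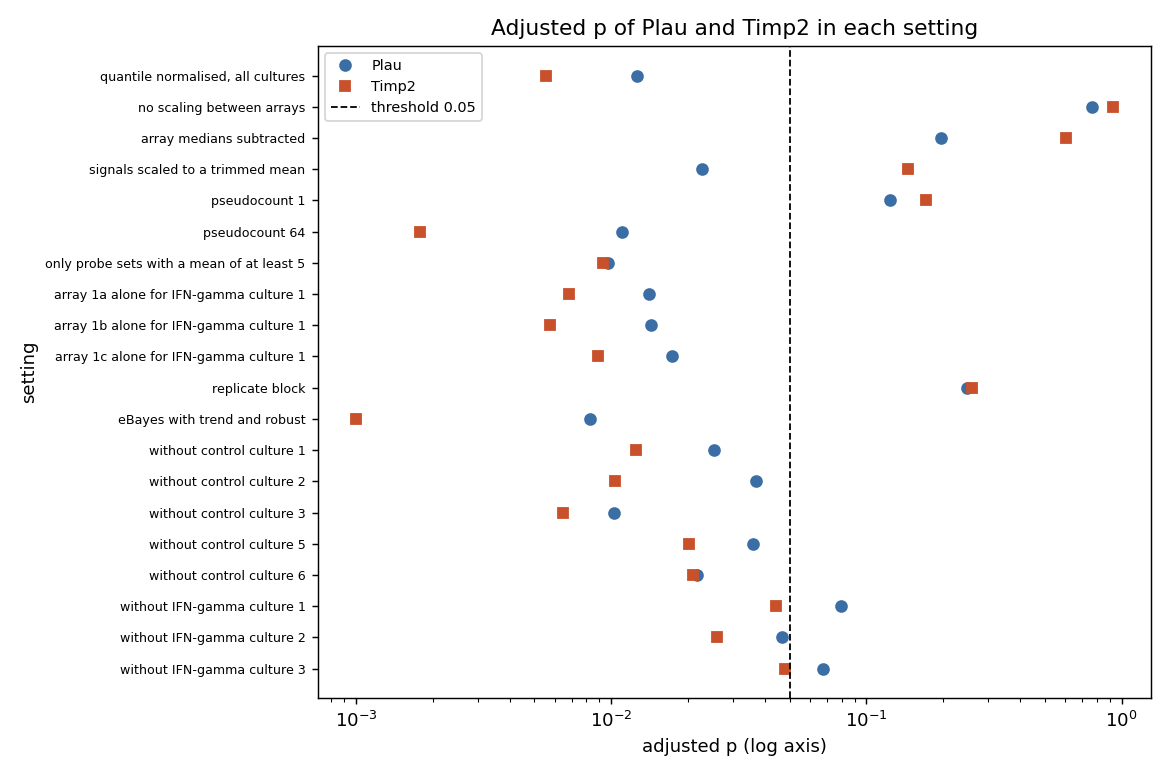
Adjusted p of Plau (circles) and Timp2 (squares) on a log axis in the quantile normalised fit and in 19 other settings (y axis); the dashed line is the threshold of 0.05. Plau passed in 13 and Timp2 in 14 of the 19, and both failed with no scaling, with array medians subtracted, with a pseudocount of 1 and with the culture number as a block.

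Timp1, an inhibitor often induced in inflamed tissue, had 6.26, 5.68, 5.78, 6.12 and 6.39 in the controls by its brighter probe set (rc_AI169327_at). With IFN-gamma it had 5.41, 6.0 and 6.46. The treated cultures held both the lowest and the highest value of the 8. The log2 fold change was -0.09, with an interval from -0.69 to 0.52 (adjusted p = 0.969). Its sign changed in 6 of 19 other settings. The second probe set (rc_AI169327_g_at) had a deposited signal under 16 on 9 of 10 arrays and a log2 fold change of -0.13 (adjusted p = 0.934).

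Timp3, the inhibitor that binds to the matrix, had 5.88, 5.23, 6.93, 5.53 and 6.33 in the controls and 5.86, 5.53 and 5.58 with IFN-gamma. All treated cultures lay inside the control range. The log2 fold change was -0.32, with an interval from -1.12 to 0.48 (adjusted p = 0.869). The 3 technical arrays of culture 1 gave 6.42, 5.34 and 5.83.

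Serpine2 had 4.50, 4.55, 4.45, 4.86 and 4.99 in the controls and 5.58, 5.00 and 4.41 with IFN-gamma. IFN-gamma culture 1 was the highest of the 8 and culture 3 the lowest. The 3 arrays of culture 1, at 5.82, 5.49 and 5.42, were all above every control. Its log2 fold change was 0.32, with an interval from -0.28 to 0.92 (adjusted p = 0.804), and deposited signals were under 16 on 5 of 10 arrays.

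**Figure D3:**
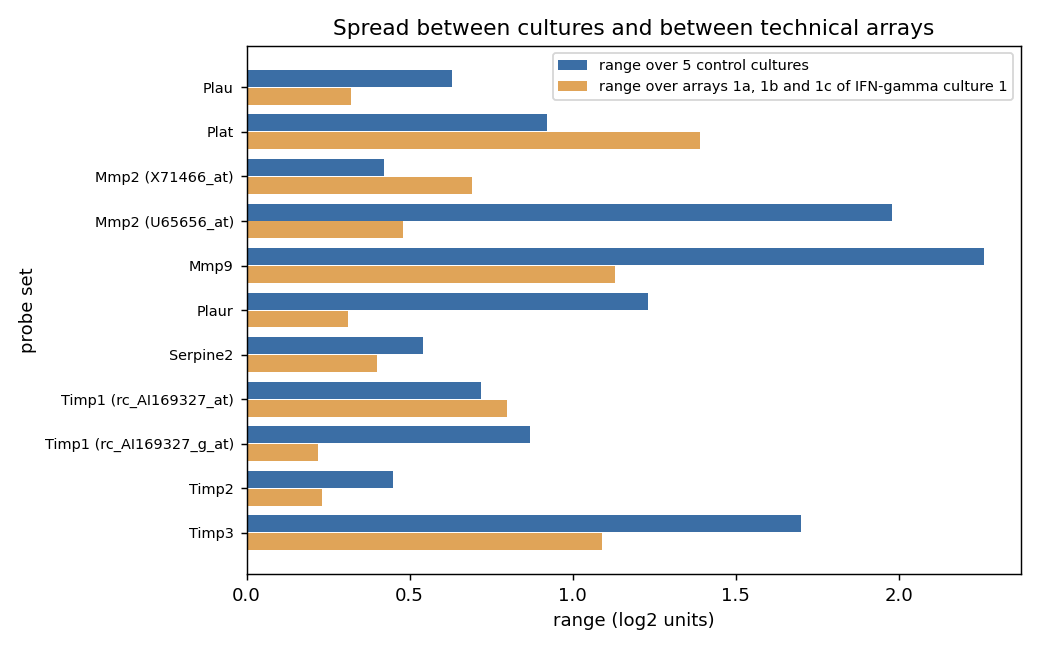
Range in log2 units of each member probe set (y axis) over the 5 control cultures (blue bars) and over the 3 technical arrays of IFN-gamma culture 1 (orange bars). The technical range was the wider of the 2 for Plat, the brighter Mmp2 probe set and the brighter Timp1 probe set, and for Plau and Timp2 it was 0.32 and 0.23 against 0.63 and 0.45.

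By the brightest probe set of each gene, 1 of 4 proteases (Plau) and 1 of 4 inhibitors (Timp2) were called lower and 0 of either class higher. Over all 4736 genes 33 were called lower and 42 higher, together 1.58%. The median log2 fold change was -0.79 for the 4 proteases and -0.20 for the 4 inhibitors. By class, 3 of 4 values were negative in each, against 52.9% of all genes. The protease set thus held 2 values beyond -1 (Plau and Mmp9) and the inhibitor set 1 (Timp2). No p is given for these medians.

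**Figure D4:**
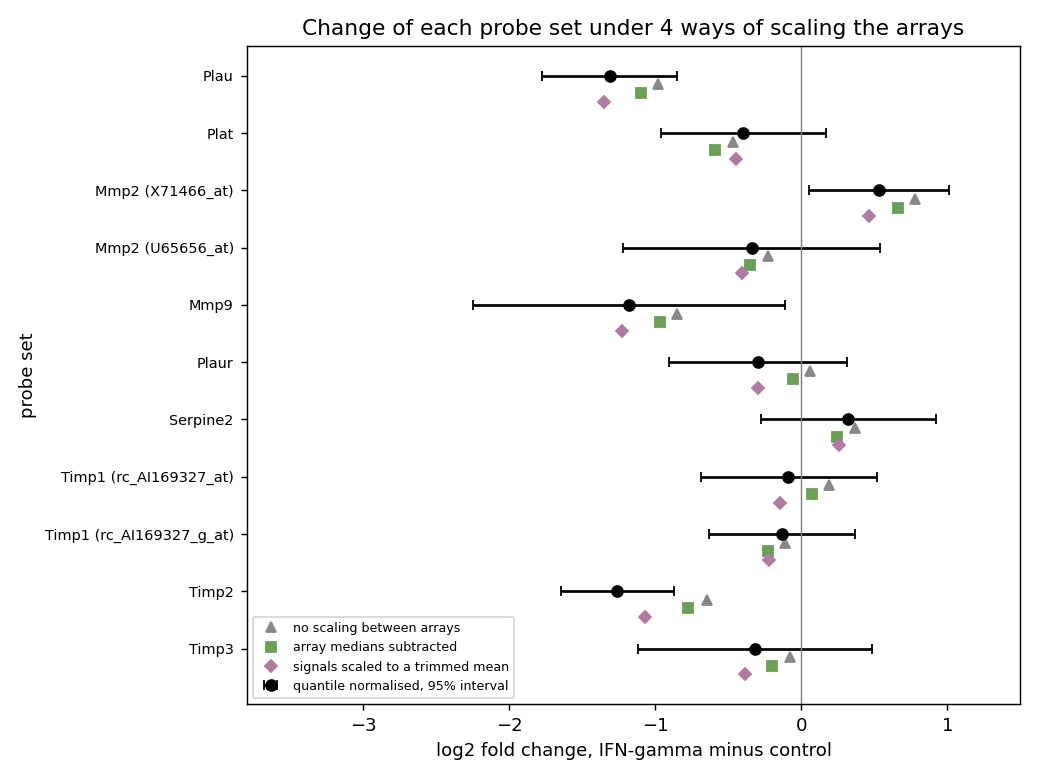
Log2 fold change of each member probe set (y axis), IFN-gamma minus control, after quantile normalisation (black, with its 95% interval) and under 3 other scalings of the arrays (coloured marks). Plau, Mmp9 and Timp2 lie below 0 under all 4, and Timp1 by its brighter probe set lies on both sides of 0.

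Differences within a culture set each protease against an inhibitor, and Plau also against its receptor gene Plaur, on the same arrays. They were centred on the control mean, and a scaling factor of an array cancels in them apart from the added 16. Mmp2 minus Timp2 was -0.04, 0.35, 0.25, -0.28 and -0.28 in the controls and 1.41, 1.88 and 2.08 with IFN-gamma. The 3 treated cultures lay above all controls, by a mean of 1.79 ± 0.348 (SD, n = 3) against a control SD of 0.293 (n = 5). They did so in all 16 other settings whose culture values were compared, no scaling included (1.43). In the settings that only leave out a culture this was fixed in advance, since separated groups stay separated with fewer cultures. For differences within an array, no scaling and array medians subtracted give the same values, so they are not separate settings. Of the 1.79, 1.26 is the fall of Timp2 and 0.53 the value of Mmp2, which by itself did not pass. By the other, dim Mmp2 probe set the difference was 0.92, and the treated cultures (0.90 to 0.97) lay within the control range of -0.78 to 1.51.

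Plau minus Serpine2 moved the other way, to -2.47, -1.47 and -0.98 with IFN-gamma, from 0.49, 0.22, -0.10, -0.02 and -0.59 in the controls. The groups did not overlap, and the mean was -1.64 ± 0.761 (SD, n = 3). They overlapped with no scaling, with array medians subtracted and with a pseudocount of 1. Since the Serpine2 signal was often under 16, the size of this difference is set in part by the added 16, and it was -2.15 with a pseudocount of 1 and -1.04 with 64. Plat minus Serpine2 had a mean of -0.72 ± 0.321 (SD, n = 3) and overlapped with the controls, but lay below them in 5 of the 16 alternatives. These were a pseudocount of 1, no scaling and array medians, and leaving out control culture 2 or IFN-gamma culture 3. No scaling and array medians give the same difference (-0.83) and are not separate. The 2 cultures left out are those that overlapped, at -0.47 and -0.38. Both differences share the dim Serpine2 probe set, so they are not independent.

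Mmp9 minus Timp1 ran from -1.66 to 1.21 in the controls and from -1.69 to -0.47 with IFN-gamma, with a mean of -1.09 ± 0.608 (SD, n = 3). The control spread of 1.16 (SD, n = 5) was wider than this difference, which was -2.01 with a pseudocount of 1 and -0.55 with 64, with overlap in all 16 other settings. Plau minus Plaur had a mean of -1.01 ± 0.387 (SD, n = 3) and met the control range, since IFN-gamma culture 2 and control culture 3 were both at -0.73. It lay below that range in 6 of 16 other settings, which include leaving out either of these 2 cultures. Only Mmp2 minus Timp2, by the brighter Mmp2 probe set, was separated from the controls in all of the settings compared. Those that leave out a culture could not have undone this. These differences are descriptions with no test.

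**Figure D5:**
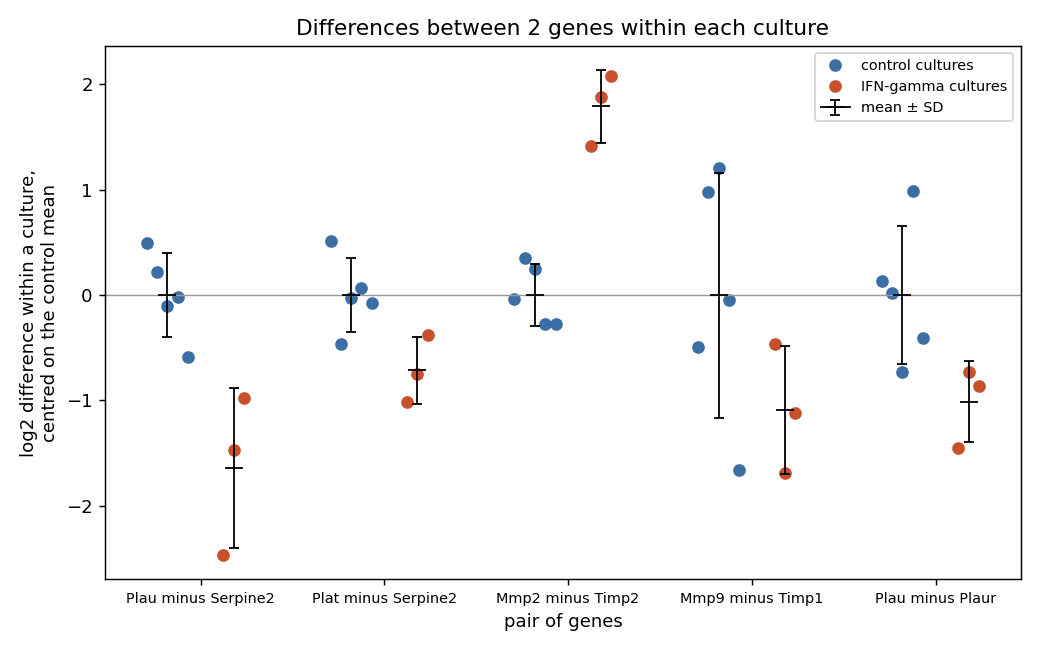
Log2 difference between 2 genes within each culture, centred on the control mean (y axis), for 5 pairs (x axis) in control (blue) and IFN-gamma (orange) cultures, with mean and SD in black. Mmp2 minus Timp2 lies above the controls at 1.41 to 2.08 and Plau minus Serpine2 below them at -2.47 to -0.98, while the other 3 pairs touch or overlap.

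Profiles over the 8 cultures were compared by the root mean square difference between mean-centred levels, for the 4 members with a mean level of at least 6 against 959 other genes. Timp2 was the second nearest gene to Plau, at 0.200, after the lysosomal membrane protein gene Lamp1 at 0.179 and before the tetraspanin gene Cd81 at 0.253. The median over all compared genes was 0.764. This measure includes the shift between the groups, so genes with log2 fold changes of like size lie near each other and the likeness is no separate result. Plau was likewise second for Timp2, after Arsb, a lysosomal sulfatase gene, at 0.138 and before Lamp1 at 0.206. Lamp1, Cd81 and Arsb were each called lower (log2 fold changes -1.24, -1.52 and -1.07, adjusted p = 0.00429, 0.00556 and 0.0275). The nearest to Plaur were Capg at 0.161, Rps27l at 0.187 and Ppib at 0.208, and the nearest to Timp1 were Ap1b1 at 0.161, Rps16 at 0.178 and Myo1e at 0.199, and none of these 6 was called.

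Around these genes, 72 other genes of extracellular proteolysis and matrix were measured, of which 2 were lower and 1 higher over the array (4.17%). Over all 4736 genes 1.58% were called. At an unadjusted p under 0.05 by limma there were 11 of the 72, against 526 of all 4736. The lists were chosen with earlier results known, so these shares are descriptions. Of 15 other genes of plasminogen activation and its receptors none passed (limma; 3 at an unadjusted p under 0.05). Among these, Eno1, a glycolytic enzyme that also binds plasminogen, differed by 0.31 on the log2 scale (adjusted p = 0.792). Its other probe set had 0.69 and was not called. Anxa2, a cell surface receptor for plasminogen and Plat, had -0.72 with groups that did not overlap (adjusted p = 0.151). Of 9 other serpins and inhibitors 1 rose, Serping1, the C1 inhibitor. It stood at 5.89 ± 0.339 in the controls (SD, n = 5) and 3.74-fold higher with IFN-gamma, at 7.79 ± 0.446 (SD, n = 3), with an adjusted p of 0.00556 by limma, and was called in 18 of 19 other settings. A2m, a broad protease inhibitor, had -0.37 (adjusted p = 0.864).

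No call was made among 10 other matrix metalloproteinases, with log2 fold changes from -0.71 to 0.18 and 0 at an unadjusted p under 0.05 (limma). Mmp11, one of the 2 brightest of that list beside Mmp9, had 0.14 (adjusted p = 0.968). Among 15 ADAM and other metalloproteinases and convertases 0 were called and 1 was at an unadjusted p under 0.05 (limma). Over all 4736 genes 1.58% were called, so 0 calls in lists of this size say little about these families. The convertase gene Furin and the aminopeptidase gene Anpep had -0.35 (adjusted p = 0.518) and -0.47 (adjusted p = 0.415) by their brightest probe sets. The other Furin probe set had -0.53 and those of Anpep -0.21 to -0.10, and none was called. Cst3, the cysteine protease inhibitor cystatin C, had 0.18 (adjusted p = 0.906) by its brighter probe set and 0.68 by the other, which was not called.

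Among 23 matrix substrates 2 were called lower and 0 higher (8.7%, against 1.58% of all 4736 genes), in a list chosen with earlier results known. Spp1, which encodes osteopontin, was 4.46-fold lower (adjusted p = 0.00879) and Fn1, which encodes fibronectin, 3.51-fold lower by its brightest probe set (adjusted p = 0.00894). The other 4 Fn1 probe sets, from -0.19 to 0.08, were not called. Each lost its call in 4 of 19 other settings (no scaling, the culture number as a block, and without IFN-gamma culture 2 or 3). The median of the 23 was -0.24. Sparc, a matrix-binding protein gene and one of the 2 brightest of that list, had -0.79 with groups that did not overlap (adjusted p = 0.103). Its other probe sets ran from -0.78 to -0.03, and none was called.

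Markers of other cells that such cultures can hold were summed as normalised signals over each list. For comparison with the counts below, over all 4736 genes 33 were called lower and 42 higher (1.58%). An unadjusted p under 0.05 by limma was found for 526 of the 4736. All treated cultures lay below all controls for 173 of the 4736 and above them for 196. The astrocyte list (8 of 10 measured) summed to 580 to 946 in the controls and 253 to 310 with IFN-gamma, beside the falls of Plau and Timp2. Most of that difference was in Glul, glutamine synthetase, which was 3.14-fold lower (brightest probe set, adjusted p = 0.0029). Without Glul the sums were 114 to 221 and 111 to 135. Glul did not pass in 4 of the 19 alternatives (no scaling, array medians subtracted, a pseudocount of 1 and the culture number as a block), and the other 3 Glul probe sets, from -1.0 to -0.59, were not called. The other 7 astrocyte markers had control means from 4.10 (Gja1) to 6.17 (Slc1a3), where 4 is no signal, and none was called (limma; 0 at an unadjusted p under 0.05). The fibroblast and meningeal list (8 of 8) summed to 221 to 263 in the controls and 157 to 182 with IFN-gamma, with 0 of 8 called (limma; 3 at an unadjusted p under 0.05). Of these 8, 7 had negative log2 fold changes, with Col1a2 at -0.71, Col5a1 at -0.61, Lum at -0.59 with groups that did not overlap, and Col3a1 at -0.55. Col1a1 stood at 5.83 in both groups by its brightest probe set, and 1 of its 3 other probe sets was called lower (-1.20). The oligodendrocyte list (7 of 9) summed to 138 to 255 and 100 to 146, with 5 of 7 values negative, 2 of them (Mag and Cspg4) with groups that did not overlap, and 0 called (limma; 3 at an unadjusted p under 0.05). The neuron list (7 of 10) summed to 84.9 to 145 and 77 to 132, and the endothelial and pericyte list (5 of 9) to 79.1 to 191 and 80.7 to 133, and limma called 0 in either (0 at an unadjusted p under 0.05). The microglia and macrophage list summed to 4230 to 5070 in the controls and 10500 to 11700 with IFN-gamma, with 4 of 13 called higher (Cd74, C1qb, C1qc and Lyz2) and 1 lower (Cd4). Mean levels of Lyz2 went from 10.82 to 12.44 and those of Cd74 from 4.51 to 10.10. The other markers of this list, from -0.34 (Cd14) to 0.79 (Itgam), were not called. Among them, Itgam and Ctss (0.68, adjusted p = 0.0818 by limma) had all treated cultures above all controls. Of the 13 markers 7 were at an unadjusted p under 0.05 (limma). Whether the sum of the microglia and macrophage list follows the number of cells was not tested. The part of any of these cells in the falls of Plau and Timp2 was not tested.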

How the data were processed

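RNA from 5 control and 3 IFN-gamma cultures was hybridised to 10 Affymetrix rat arrays. The deposited table holds 1 linear intensity per probe set and array. Per the submitters' processing notes MAS5 and GCRMA were used, without versions; which of them made these values, and how arrays were scaled, is not given in those notes. Array medians ran from 7.4 to 23.7. No 2 arrays shared a signal at more than 80 probe sets. From 8799 probe sets 59 array controls were removed. Then log2(signal + 16) was quantile normalised over the 10 arrays and arrays 1a, 1b and 1c were averaged. The 5 and 3 cultures were compared by limma's moderated two-sided test (version 3.58.1, R 4.3.3) with no covariate, and p-values were adjusted by Benjamini-Hochberg over 8740 probe sets, with a threshold of 0.05. Each adjusted p comes from that fit or, where another setting is named, from the same test refitted under it. The method was checked on simulated data. SE and 95% intervals are limma's moderated ones. The number of arrays limits the precision. For a gene with more than 1 probe set, counts by gene use its brightest one, averaged over all 8 cultures.

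Symbols came from the platform annotation (7006 probe sets with 1 symbol, 308 with several, 1426 not listed). Entrez identifiers matched RefSeq's GRCr8 table for 6985, with the same symbol in each. Coordinates are printed only for the RefSeq promoter windows. Detection calls were not used here; 7 of 11 members had a mean of at least 5, a signal of about 16. All member probe sets are named. Other pathway genes were named where they passed or were among the 2 brightest of their list. Members and lists were chosen with earlier results of these data known. Same-numbered cultures of the 2 groups did not deviate together, and the labels do not pair them, so the fit has no block. Alternatives covered scaling, pseudocount, low values, technical arrays, block, variance model and each culture left out.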

Additional observations from a re-analysis of the deposited data

Results flagged for a closer look

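In 3 of 16 tests over the 5 controls (11 probe sets and 5 differences) 1 control culture stood apart from the other 4 by Dixon's test at its critical value of 0.71. By chance this happens in about 1 of 20 such groups. Plaur was low in control culture 5, at 5.84 (gap over range 0.729). The dim Mmp2 probe set U65656_at was high in control culture 2, at 6.17 (0.737). The dim Timp1 probe set rc_AI169327_g_at was high in control culture 5, at 5.17 (0.869). None of the 3 probe sets was called with or without these cultures. Without control culture 5 the treated cultures of Plaur all lay below the controls, and the second Timp1 probe set changed sign (0.03).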

How the results depend on the processing

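Of the 11 members 2 were called after quantile normalisation. With no scaling 0 were called (1 at an unadjusted p under 0.05 by limma), with array medians subtracted 0 (4 unadjusted), with a pseudocount of 1 0 (3 unadjusted) and with a trimmed mean 1. Leaving out each culture gave 1 to 2, the 1 being Timp2 without IFN-gamma culture 1 or 3. Array-wide calls numbered 133, against 39 with no scaling, 65 with a pseudocount of 1 and 68 to 154 with a culture left out (78, 75 and 68 without IFN-gamma culture 1, 2 or 3). Higher calls were 60.9% of them, 78.7% with array medians subtracted and 97.4% with no scaling, which moves the median of all probe sets from -0.02 to 0.10. Same-numbered cultures had correlated deviations of -0.03, 0.00 and -0.01. With the replicate number as a block, 22 probe sets and 0 members were called (3 unadjusted), and Plau and Timp2 had log2 fold changes of -1.35 and -1.20 (adjusted p = 0.248 and 0.259), in a fit with fewer residual degrees of freedom. Plaur was 0.06 with no scaling. The brighter Timp1 probe set was 0.19 with no scaling, 0.07 with array medians, 0.08 with array 1b alone, 0.05 with the block and -0.34 to 0.19 with a culture left out. The second was 0.04 with the block and -0.19 to 0.03 with a culture left out. Mmp2 minus Timp2 was 1.43 with no scaling and with array medians, 2.12 and 1.33 with a pseudocount of 1 and 64, and 0.92 by the other Mmp2 probe set, an alternative chosen after seeing the data. Plau minus Serpine2 was -1.04 with a pseudocount of 64. Plat minus Serpine2 was -2.03 and -0.26 with a pseudocount of 1 and 64 and -0.36 with array 1c alone. Causes of these shifts were not tested. Signals near the added 16 limit Plat, Serpine2 and the second Mmp2 and Timp1 probe sets.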
